A study of Homo sapiens with 19 samples.

Results

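The 8 genes described here are ISM2, MAP3K15, L1CAM, NIM1, C14orf132, DNAH11, CCDC8 and ADRBK2. They were chosen by the size of the rise in their transcript level in 786-O cells with re-expressed HIF-1α over control cells, a size that varied widely among them. They are 8 of the 23441 gene symbols in the deposited table of raw read counts, and 8 of the 14225 that passed the filter on low counts. Some of them, such as ISM2, passed that filter only through the HIF-1α libraries in which they are high, so the number that passed says nothing about the genes. Because the difference between HIF-1α and control cells chose them, that difference is described below with its values and errors but with no test, and so is the difference from HIF-2α cells, which uses the same HIF-1α libraries.

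786-O cells are a long-used line of clear cell renal carcinoma with defective VHL, the protein that marks HIF-α subunits for degradation. Pools of these cells received a lentiviral pRRL.IRES.EGFP vector that was empty (control cells), carried a HIF-1α cDNA (HIF-1α re-expressing cells) or carried a HIF-2α cDNA (HIF-2α overexpressing cells), from virus packaged in HEK293T cells. All 3 pools therefore lack VHL function, keep their own HIF-2α and the truncated HIF-1α transcripts of this line, and differ in the transgene. Poly(A)+ RNA was sequenced from 3 libraries of each pool, and binding of HIF-1α, HIF-1β and HIF-2α was mapped by ChIP-seq as 7 lists of peaks, each from 1 library. The paper states that total RNA was prepared in triplicate, but nothing says that libraries of 1 pool came from separate infections or cultures. The p-values therefore measure only the spread between these libraries, and whether that spread is technical was not tested.

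HIF-1 is a dimer of a HIF-α subunit with HIF-1β that binds a short core sequence, ACGTG or GCGTG, in hypoxia response elements near promoters and in enhancers. Its classical targets encode glycolytic enzymes, regulators of pH such as CA9, and mitophagy receptors such as BNIP3. The 8 genes belong to none of these groups: they encode a secreted protein, an adhesion molecule, 3 protein kinases, a subunit of a growth-related ligase complex, a ciliary motor protein and a protein of no assigned function. In bulk RNA, a higher level in each cell and a larger number of cells that express the gene cannot be told apart.

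Libraries held between 27852754 and 54287621 counts. All levels are CPM, the read count of a gene per 1000000 reads of its library after scaling for library composition (TMM factors). The targeted gene HIF1A stood at 171, 1682 and 473 CPM in replicates 1, 2 and 3 of the HIF-1α cells, at 30.4, 36.7 and 152 CPM in the control cells and at 15.3, 30.4 and 17.5 CPM in the HIF-2α cells. EPAS1, which encodes HIF-2α, stood at 946, 3244 and 879.8 CPM in the HIF-2α cells against 456, 224 and 162 CPM in the control cells, so both transgenes were seen in the pools named for them. In the HIF-1α cells EPAS1 was at 575, 627 and 397 CPM, above the control library of the same number in each of the 3 pairs by 1.26, 2.8 and 2.45-fold (log2 fold change 0.95 ± 0.43, edgeR with the block, adjusted p = 0.154). Control replicate 3 stood apart: its HIF1A level was above those of the other control libraries, and CA9, a classical HIF-1 target, was at 0, 0.171 and 14.3 CPM in control replicates 1, 2 and 3 and at 8.46, 177 and 68.3 CPM in the HIF-1α cells. Whether this library holds reads of another pool was not tested, and it enters each fold change against control cells. The summed level of 7 genes chosen as markers of 786-O cells (PAX8, CDH6, VIM, KRT8, KRT18, MET and AXL) was 7366 to 7974 CPM in control, 6386 to 7594 CPM in HIF-1α and 5874 to 7813 CPM in HIF-2α cells, and all 7 were detected. With the replicate block, KRT18 fell in HIF-1α cells (log2 fold change -0.86 ± 0.19, edgeR adjusted p = 0.0405) and the other 6 were not called. Of 5 genes chosen as markers of the packaging cells, LIN28B and INA had 0 counts in every library, and the summed level of the 5 was 57.0 to 203 CPM in HIF-1α cells against 78.4 to 216 CPM in control cells. IGF2BP1, from the same list, rose with the block (log2 fold change 2.60 ± 0.67, edgeR adjusted p = 0.0487), and whether this moves with the 8 genes was not tested.

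The genes were not simply those with the largest rise. Ranked by log2 fold change between HIF-1α and control cells with the replicate number fitted as a block, ISM2 was first among 14225 genes, L1CAM was number 7, MAP3K15 10, NIM1 22, DNAH11 32 and C14orf132 57, while ADRBK2 was number 224 and CCDC8 number 272. Just outside the choice, 98 other genes with at least 5 CPM in the HIF-1α cells had a larger rise than CCDC8, the member with the smallest, led by CA9 at a log2 fold change of 5.72, WISP2 at 5.53, BAIAP3 at 3.99, IGFBP5 at 3.96 and LOX at 3.70.

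The first pair of genes encode proteins that work outside the cell or at its surface. L1CAM (ENSG00000198910, minus strand, chrX:153126969-153151627 in GRCh37) encodes an immunoglobulin-type adhesion molecule of neurons that carcinoma cells can also carry. Its level was 119.6, 604 and 30.2 CPM in HIF-1α replicates 1, 2 and 3, 14.9, 6.71 and 1.77 CPM in control cells and 14.1, 14 and 6.91 CPM in HIF-2α cells. The lowest HIF-1α library lay above the highest control library, although the HIF-1α libraries themselves were spread more widely than those of the other pools. The log2 fold change between HIF-1α and control cells was 5.01 ± 1.10 (SE derived from the edgeR test, n = 3 libraries per pool).

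ISM2 (ENSG00000100593, minus strand, chr14:77940737-77965159) encodes isthmin 2, a secreted protein. It was almost silent outside the HIF-1α cells, where its raw counts were 13, 682 and 66, against 0, 0 and 3 in control and 1, 2 and 2 in HIF-2α cells. The HIF-1α library of replicate 2 thus held most of the ISM2 reads of the pool, at 17.3 CPM, with 0.319 CPM in replicate 1 and 1.23 CPM in replicate 3. Against a floor of 3 counts per library, ISM2 was at least 4.11-fold higher in replicate 1 and at least 202-fold higher in replicate 2 than in the control library of the same number. In replicate 3, which had 3 control counts, the ratio was 15.7 with a 95% counting interval of 5.15 to 78.2. Summed over each pool, 761 counts stood against 3, a 212-fold difference with a counting interval of 72.4 to 1032, and such intervals cover counting error only. The fitted log2 fold change, 7.72 ± 1.69, depends on how the zeros are handled and is no bound, and it was 10.95 without control replicate 3.

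The RefSeq promoters of ISM2 and L1CAM (250 bases before to 50 after the start site, GRCh38.p14, read 5′ to 3′ on the gene's strand) show how the sequence context of strongly raised genes can differ. Capitals mark the HIF core, ACGTG or GCGTG on either strand.
ISM2, minus strand, chr14:77498767-77499066: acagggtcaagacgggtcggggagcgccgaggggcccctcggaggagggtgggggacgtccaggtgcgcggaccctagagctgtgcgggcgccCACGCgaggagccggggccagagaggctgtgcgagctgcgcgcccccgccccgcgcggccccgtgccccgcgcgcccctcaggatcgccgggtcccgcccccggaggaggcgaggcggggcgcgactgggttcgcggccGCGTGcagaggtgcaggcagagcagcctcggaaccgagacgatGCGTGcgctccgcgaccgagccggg
L1CAM, minus strand, chrX:153875895-153876194: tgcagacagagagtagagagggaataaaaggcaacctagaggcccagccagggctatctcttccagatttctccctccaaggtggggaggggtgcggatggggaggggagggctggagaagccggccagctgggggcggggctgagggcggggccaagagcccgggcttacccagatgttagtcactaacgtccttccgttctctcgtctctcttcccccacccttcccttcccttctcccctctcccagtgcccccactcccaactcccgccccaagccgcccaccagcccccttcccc
The ISM2 promoter shown holds 3 cores, starting at -157, -18 and 26 relative to the start site, and the L1CAM promoter shown holds 0. The annotation gives 5 start sites for ISM2 and 15 for L1CAM, and only promoters with a RefSeq entry were examined. Among 35116 RefSeq promoters of the same length, 48.4% hold at least 1 core and 10.1% hold 3 or more. A match is a run of letters and not a shown binding site, and a promoter without one may still be bound.

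The 3 kinases came next. MAP3K15 (ENSG00000180815, minus strand, chrX:19378174-19533626) encodes ASK3, a stress-activated kinase of the ASK family that is known from kidney cells. Its level was 2.35, 16.1 and 5.03 CPM in the HIF-1α libraries, 0.44, 0.284 and 0.156 CPM in control and 0.361, 1.74 and 0.617 CPM in HIF-2α cells. All HIF-1α libraries lay above all others, although replicate 1 exceeded the highest HIF-2α library by only 1.35-fold. The log2 fold change from control cells was 4.72 ± 0.89.

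NIM1 (now NIM1K, ENSG00000177453, plus strand, chr5:43192173-43280952) encodes a kinase related to AMPK that is phosphorylated by LKB1. Its level was 0.931, 24.3 and 2.57 CPM in HIF-1α, 0.103, 0.541 and 0.417 CPM in control and 0.169, 0.593 and 0.154 CPM in HIF-2α cells. Here too replicate 2 was far above the other HIF-1α libraries, with a 26.1-fold span from lowest to highest, yet the lowest of them lay above every library of the other pools. The log2 fold change from control cells was 4.70 ± 1.22. The lowest and middle HIF-1α libraries were much closer to the control level, and without replicate 2 the log2 fold change was 2.28.

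ADRBK2 (now GRK3, ENSG00000100077, plus strand, chr22:25960642-26125261) encodes a kinase that phosphorylates activated G protein-coupled receptors and so desensitizes them. It was the most even of the kinases, at 9.56, 11.9 and 13.1 CPM in HIF-1α cells, 2.04, 2.11 and 3.75 CPM in control and 1.42, 6.25 and 1.54 CPM in HIF-2α cells. The HIF-1α libraries differed among themselves by 1.38-fold at most, and the lowest of them was above the highest control and the highest HIF-2α library. Its log2 fold change from control cells, 2.13 ± 0.57, was among the smallest of the 8.

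The other 3 genes have no role in common. CCDC8 (ENSG00000169515, minus strand, chr19:46913586-46916821) encodes a subunit of the 3M complex, in which it works with the cullin CUL7 and OBSL1, and whose loss causes a growth disorder. The HIF-1α libraries were nearly equal at 4.66, 4.76 and 5.73 CPM, whereas control cells showed 0.492, 0.797 and 3.2 CPM and HIF-2α cells 0.53, 0.558 and 0.257 CPM. The spread was thus in the controls, where replicate 3 was well above the others. The log2 fold change from control cells was 1.75 ± 0.64 with all libraries and 2.96 without control replicate 3.

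DNAH11 (ENSG00000105877, plus strand, chr7:21582657-21941457) encodes a dynein heavy chain of the outer arms of motile cilia, mutated in primary ciliary dyskinesia. It stood at 4.44, 23.2 and 8.02 CPM in HIF-1α, 0.647, 0.683 and 1.25 CPM in control and 0.915, 2.09 and 2.67 CPM in HIF-2α cells. The HIF-1α libraries were above all others, and the HIF-2α library was above the control library in each of the 3 replicate numbers, by 1.41-fold, 3.07-fold and 2.14-fold, an order that 19.7% of all genes showed and that held for no other of the 8. The log2 fold change between HIF-1α and control cells was 3.78 ± 0.69.

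C14orf132 (ENSG00000227051, plus strand, chr14:96505699-96560308) is a protein-coding gene of no assigned function here. Its level was 3.85, 6.91 and 31.6 CPM in HIF-1α, 0.931, 0.37 and 3.93 CPM in control and 0.337, 0.768 and 0.745 CPM in HIF-2α cells. It was the only one of the 8 whose HIF-1α and control libraries overlapped, because control replicate 3 lay just above HIF-1α replicate 1. The log2 fold change was 3.01 ± 0.96 with all libraries, 4.42 without control replicate 3 and 1.62 without HIF-1α replicate 3.

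**Figure D1:**
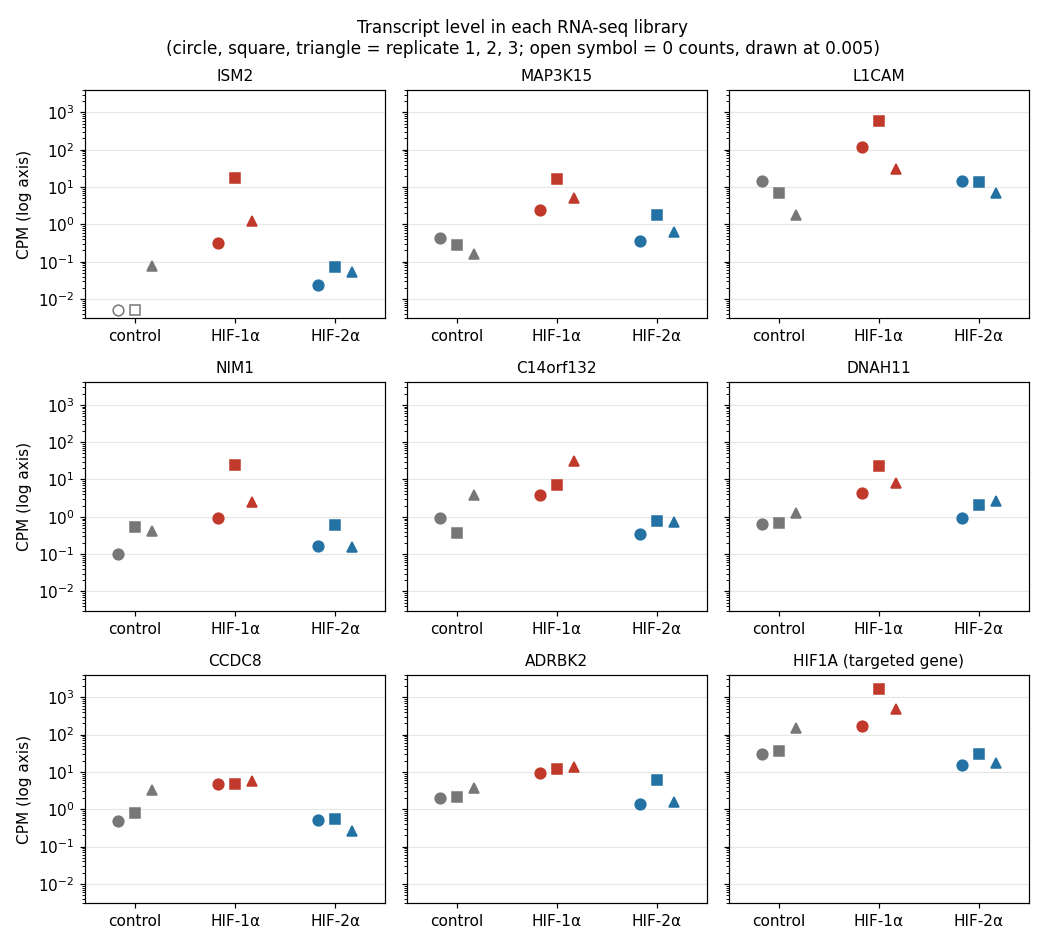
CPM of the 8 genes and of the targeted gene HIF1A in each of the 9 RNA-seq libraries, on a log axis, by pool (grey control, red HIF-1α, blue HIF-2α cells) and replicate number (symbol shape). The red symbols lie above the grey and blue ones in each panel, except for C14orf132, where a control library at 3.93 CPM overlaps the lowest HIF-1α library at 3.85 CPM; HIF1A and 5 of the genes peak in HIF-1α replicate 2.

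For 7 of the 8 genes every HIF-1α library was above every control library, as was the case for 12.9% of all genes tested, and since this contrast chose the genes nothing is read from that count. The median log2 fold change of the 8 was 4.24, against 0.04 over all 14225 genes. With the replicate number as a block, which pairs each HIF-1α library with the control library of its number, the fold changes were 6.95 ± 1.12 for ISM2, 4.61 ± 0.75 for L1CAM, 4.29 ± 0.63 for MAP3K15 and 3.88 ± 0.65 for NIM1. They were 3.55 ± 0.50 for DNAH11, 2.94 ± 0.55 for C14orf132, 2.12 ± 0.49 for ADRBK2 and 1.98 ± 0.59 for CCDC8, with a median of 3.71.

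All 8 genes were higher in the HIF-1α library than in the control library in each of the 3 pairs, a pattern seen in 29% of all genes, but by amounts that differed from pair to pair. L1CAM was 8.04, 89.9 and 17-fold higher in pairs 1, 2 and 3, MAP3K15 5.35, 56.8 and 32.2-fold, and NIM1 9, 45 and 6.16-fold. DNAH11 was 6.86, 34 and 6.42-fold higher and C14orf132 4.13, 18.7 and 8.02-fold. The evenest of the 8 was ADRBK2, with ratios of 4.68, 5.64 and 3.5, and CCDC8 alone had its largest ratio in pair 1, with ratios of 9.47, 5.97 and 1.79. The other 7 had their largest ratio in pair 2, against 25.7% of all genes. For ISM2 this rests on bounds, since its control counts in pairs 1 and 2 were 0. The HIF1A transcript itself had ratios of 5.64, 45.8 and 3.12. Within the HIF-1α cells, ISM2, MAP3K15, NIM1 and DNAH11 followed the order of the HIF1A level (replicate 1 lowest, replicate 2 highest), as did 13.6% of all genes. C14orf132, CCDC8 and ADRBK2 were highest in replicate 3. These ratios and levels are the values that chose the genes, and a library with a very high level favours the choice. Nothing is therefore read from these counts, and whether the genes move with the HIF1A level was not tested.

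**Figure D2:**
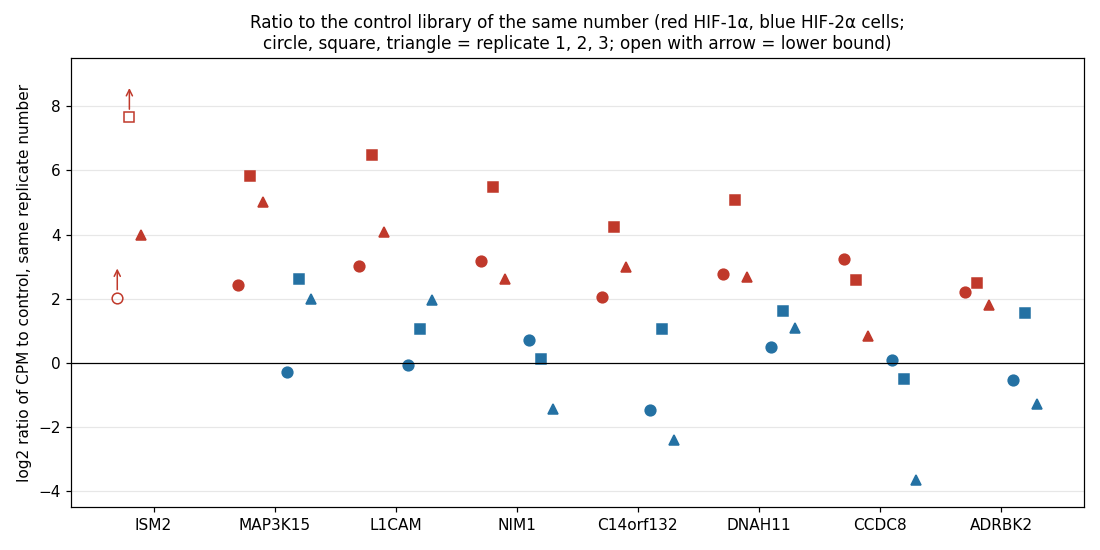
Log2 ratio of CPM to the control library of the same replicate number for the 8 genes, in HIF-1α (red) and HIF-2α cells (blue), with pairs 1, 2 and 3 as circles, squares and triangles and lower bounds as open symbols with arrows. ISM2 in HIF-2α cells is not drawn since both pools were at or under 3 counts; every red symbol is above 0 and the blue symbols fall on both sides of it.

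Single libraries decided some of these values. Leaving out HIF-1α replicate 2 lowered the log2 fold change of ISM2 to 4.69, of L1CAM to 3.24, of MAP3K15 to 3.61, of NIM1 to 2.28 and of DNAH11 to 2.82, each by more than 1.5-fold in linear terms. Leaving out HIF-1α replicate 3 lowered that of C14orf132 to 1.62, and leaving out control replicate 1 raised that of L1CAM to 5.88. Leaving out control replicate 3 raised that of C14orf132 to 4.42 and of CCDC8 to 2.96, and that of ISM2 to 10.95 because no control count then remained. ADRBK2 moved by less than 1.5-fold in every such fit. The direction was the same in all fits with 1 library left out.

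HIF-2α cells were set against control cells in the same way. In this comparison, which the choice did not use except through the shared control libraries, 0 of the 8 passed an adjusted p of 0.05 in edgeR's quasi-likelihood test, where 0% of all genes were called and 5.89% (838 genes) had an unadjusted p under 0.05. Among the 8, CCDC8 alone had such an unadjusted p. The fit with pairs called 0 of the 8, against 0.112% of all genes called higher and 0.155% called lower, and 0 of the 8 but 14.5% of all genes had an unadjusted p under 0.05. DESeq2 called 0 of the 8 as well, against 0.247% of all genes higher and 0.176% lower, with MAP3K15 and CCDC8 among the 7.13% of all genes at an unadjusted p under 0.05. With so few genes called in the whole table, these counts say nothing particular about the 8.

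The fold changes between HIF-2α and control cells lay on both sides of 0, with 4 of 7 above it and a median log2 of 0.21, against -0.02 over all genes. ISM2 is left out of these numbers, since it had 5 counts against 3, at or under the floor of 3 counts in each library. MAP3K15 had the largest positive value at 1.60 ± 0.82 (edgeR adjusted p = 0.842), from ratios of 0.821, 6.13 and 3.94 in pairs 1, 2 and 3. DNAH11 was at 1.13 ± 0.64 (edgeR adjusted p = 0.842), L1CAM at 0.58 ± 0.95 and ADRBK2 at 0.21 ± 0.56. The other 3 were below 0, with CCDC8 lowest at -1.74 ± 0.67 (edgeR adjusted p = 0.824), followed by C14orf132 at -1.51 ± 0.95 and NIM1 at -0.25 ± 1.17. The low values of CCDC8 and C14orf132 came largely from pair 3, where the ratios were 0.0805 and 0.189 and the control library was the high one. Without control replicate 3 they were -0.53 for CCDC8 and -0.09 for C14orf132. Without HIF-2α replicate 2, MAP3K15 was at 0.72, NIM1 at -1.12 and ADRBK2 at -0.84, and without control replicate 1 L1CAM was at 1.46. The errors of these values were 0.56 to 1.17 on the log2 scale. In the fit with pairs they were 0.48 to 0.73, with 1.27 ± 0.63 for MAP3K15, 1.03 ± 0.48 for DNAH11, 0.91 ± 0.66 for L1CAM and 0.01 ± 0.51 for ADRBK2. In that fit CCDC8 was at -1.44 ± 0.65, C14orf132 at -1.07 ± 0.60 and NIM1 at -0.31 ± 0.73. Such errors limit what could be detected, and a gene that was not called is not shown to be unaffected.

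The 8 genes also differed between the cells with either transgene. For 8 of 8 genes every HIF-1α library was above every HIF-2α library, against 10.4% of all genes, which is again a description since these HIF-1α libraries chose the genes. For ISM2, 761 counts in the HIF-1α pool stood against 5 in the HIF-2α pool, a 124-fold difference with a counting interval of 52.9 to 383, and since its HIF-2α libraries are under the floor its fitted log2 value of 6.98 ± 1.60 is no bound. The log2 fold changes were 4.95 ± 1.24 for NIM1, 4.52 ± 1.04 for C14orf132 and 4.43 ± 1.07 for L1CAM. They were smaller for CCDC8 at 3.49 ± 0.70, MAP3K15 at 3.12 ± 0.81, DNAH11 at 2.65 ± 0.65 and ADRBK2 at 1.92 ± 0.57. Without HIF-1α replicate 2 the values were lower, at 3.94 for ISM2, 2.51 for NIM1, 2.65 for L1CAM, 2.00 for MAP3K15 and 1.69 for DNAH11, and without HIF-1α replicate 3 the value was 3.13 for C14orf132. Without HIF-2α replicate 2 they were 5.81 for NIM1, 3.98 for MAP3K15 and 2.94 for ADRBK2. The narrowest margin was that of MAP3K15, and the widest that of CCDC8, whose lowest HIF-1α library was 8.34-fold above its highest HIF-2α library.

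Compared per kilobase of exon, the 8 genes were of very different abundance in the HIF-1α cells. L1CAM was highest, at a mean of 34.6 CPM per kb. NIM1 followed at 2.56 CPM per kb, C14orf132 at 1.81, CCDC8 at 1.56, ISM2 at 1.53, MAP3K15 at 1.35 and ADRBK2 at 1.24 CPM per kb. DNAH11, the longest transcript, was at 0.736 CPM per kb. L1CAM was above NIM1 in 3 of 3 HIF-1α libraries, by 63.9, 12.4 and 5.85-fold. At each later step of the order a gene was above the next in only 1 or 2 of the 3 libraries, so these neighbours did not differ beyond their spread. In control cells L1CAM was also highest, at 1.07 CPM per kb, and the other 7 were at 0.463 CPM per kb or less.

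Relatives and partners of the 8 genes were examined next. Of 29 genes of the same families or complexes, 23 were tested, and with the replicate block 1 of them was called higher in HIF-1α than in control cells, against 5.41% of all genes, and 0 lower, against 2.55%. The gene called was NRCAM, an adhesion molecule of the L1 family, at 31.1, 12.2 and 18.9 CPM against 5.95, 3.98 and 7.95 CPM (log2 fold change 1.76 ± 0.27, edgeR adjusted p = 0.0299). Without the block, edgeR called 0 of the 23 and 0 genes of all tested, with 4 of the 23 and 19.4% of all genes at an unadjusted p under 0.05, while DESeq2 called MAP3K5 and NRCAM. With HIF-1α replicate 2, HIF-2α replicate 1, control replicate 2 or control replicate 3 left out, the fit with the block called 0 of all genes, so in that fit the calls of NRCAM and of the lists described next rest on each of these 4 libraries. CHL1, another member of that family, had 0 counts in every library. The median log2 fold change of the 23 was 0.37, and 19 of 23 were above 0.

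Some partners came close to the threshold. MAP3K5, which encodes ASK1, had a log2 fold change of 1.11 ± 0.31 (edgeR with the block, adjusted p = 0.0575). The partners of CCDC8 in the 3M complex were at 0.97 ± 0.27 for CUL7 (edgeR adjusted p = 0.0545) and 0.78 ± 0.23 for OBSL1 (edgeR adjusted p = 0.0642). In contrast ISM1, the paralogue of ISM2, had a negative value of -0.75 ± 0.43 (edgeR adjusted p = 0.246) and was at 4.34, 3.52 and 3.11 CPM in HIF-1α cells against 4.53, 9.76 and 5.68 CPM in control cells. The AMPK-related kinases MARK2, MARK3 and MARK4 were at -0.37, 0.25 and 0.41, and STK11, which encodes LKB1, at -0.05. The ciliary dyneins tested ranged from 0.01 for DNAH10 and 0.02 for DNAH14 to 0.72 for DNAH1 and 0.90 for DNAH7, and none was called. The receptor kinases related to ADRBK2 ranged from -0.25 for GRK6 to 0.59 for GRK4, and none was called.

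Since L1CAM is known from neurons, 10 neuronal genes were examined as well. With the block, 1 of the 6 that were tested was called higher in HIF-1α cells, against 5.41% of all genes, and 0 lower, against 2.55%. The gene called was MAP2, which encodes a microtubule-associated protein, with a log2 fold change of 1.62 ± 0.22 (edgeR adjusted p = 0.0264). DESeq2 also called MAP2. TUBB3 was at -0.19, SYP at -0.81 and NCAM1 at 0.84. The summed level of the 10 genes was 277 to 340 CPM in HIF-1α cells, 219.8 to 275 CPM in control cells and 186 to 259.6 CPM in HIF-2α cells. Most of that sum was NCAM1, at 148, 136 and 193 CPM in the HIF-1α libraries, and TUBB3, at 87.1, 150 and 110 CPM. Of the 10 genes, 4 were under 1 CPM in all 9 libraries.

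For scale, 25 well-known HIF targets were examined in the same way. With the block, 5 of the 25 were called higher in HIF-1α than in control cells (CA9, BNIP3L, P4HA1, KDM3A and MXI1), against 5.41% of all genes, and 0 lower, with a median log2 fold change of 0.91. Of these 5, DESeq2 also called BNIP3L, P4HA1 and MXI1. It further called BNIP3 and HK2 higher (DESeq2 adjusted p = 0.00782 and 0.0375), which the fit with the block did not. Apart from CA9 the values were modest, such as 1.72 ± 0.49 for BNIP3 (edgeR adjusted p = 0.0575) and 1.10 ± 0.48 for PDK1 (edgeR adjusted p = 0.142). EGLN3, an oxygen-sensing prolyl hydroxylase, had the opposite order to the 8 genes between the transgenes: it was at 78.4, 325 and 139 CPM in HIF-1α, 356, 912 and 650.4 CPM in HIF-2α and 128, 205 and 171 CPM in control cells.

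The genes whose levels over the 9 libraries were most like the mean of the 8 were KIAA1467 (Pearson r = 0.973), PLEKHH1 (0.972), RORA (0.969), PLA2G4D (0.969) and HOXA13 (0.966). The points of such a correlation share their pools, so that any gene high in the HIF-1α cells scores well, and no test was made.

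HIF peaks near the start sites of the 8 genes were counted next. Peaks were assigned by the distance from the midpoint of the peak, each 2500 bp wide, to the nearest annotated transcription start site of the gene. Within 10 kb, 1 of the 8 genes (NIM1) had a HIF-1α peak in the HIF-1α cells, whereas 34.6% of the 13757 tested genes with a known position had one. A HIF-1β peak of the HIF-1α cells lay within 10 kb of 2 of the 8 (MAP3K15 and NIM1), against 40.8% of all genes. In the control cells a HIF-1β peak lay near 1 gene (NIM1), against 25.7%, and in the HIF-2α cells near 1 gene (NIM1 again), against 16.2%. HIF-2α peaks lay within 10 kb of 0 of the 8 genes in HIF-1α, control and HIF-2α cells, against 4.22%, 5.33% and 14.5% of all genes. The peak lists were not used in the choice of the genes, but each comes from 1 library and holds no score, so these counts have no replicate check and carry no test.

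**Figure D3:**
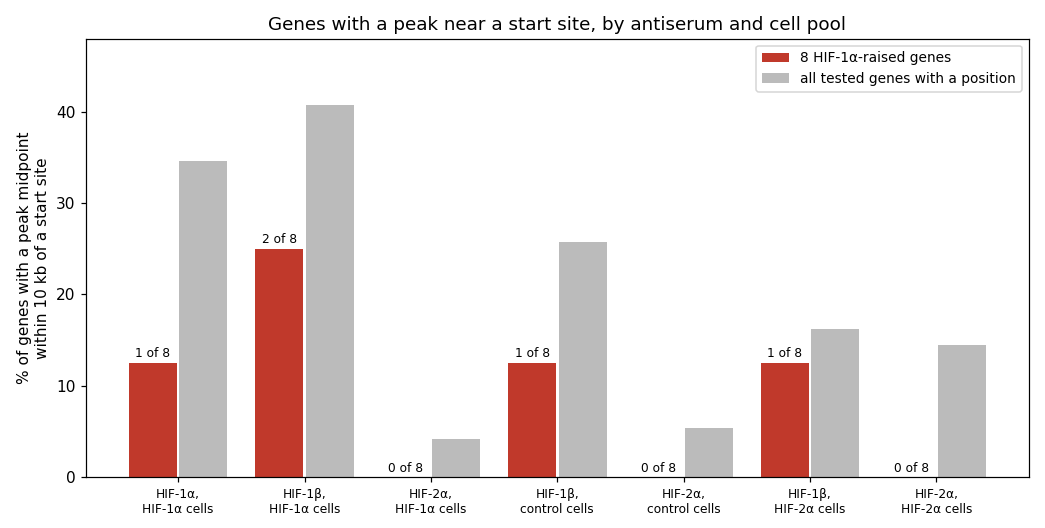
Percent of genes with a peak midpoint within 10 kb of a start site, for the 8 genes raised in HIF-1α cells (red bars, with the number of genes) and for all tested genes with a position (grey bars), by antiserum and cell pool. For each of the 7 lists the red bar is lower than the grey one, and it is at 0 for the 3 HIF-2α lists, but 8 genes are too few to show a difference.

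NIM1 was the exception, with peaks at its start sites in each pool. Its HIF-1α peak (chr5:43191295-43193794, GRCh37) had its midpoint 0.172 kb from a start site, and HIF-1β peaks lay 0.236 kb away in HIF-1α cells, 0.137 kb away in HIF-2α cells and 0.002 kb away in control cells. The neighbouring gene ZNF131 ends 0.05 kb before the start of NIM1. The nearest HIF-2α peaks of control and HIF-2α cells were 71.1 and 71.5 kb away. HIF-1β was therefore found at this promoter also in the pools in which NIM1 was low.

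MAP3K15 showed HIF-1β at a start site in the HIF-1α cells and in no other pool. Its peak (chrX:19532363-19534862) was centred 0.014 kb from the start site, with HIF-1β peaks of control and HIF-2α cells 392.5 and 541.4 kb away. It had no HIF-1α peak there, and the nearest lay 2425 kb away. Such a pattern, with a HIF-1β peak in HIF-1α cells and none in control cells within 10 kb, was seen for 1 of the 8 genes and for 22.1% of all genes, and with the added condition of no HIF-1α peak for 1 of 8 and 12.7% of all genes. The lists keep only peaks above a threshold, so a missing entry is not a measured absence of binding.

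The other 6 genes had no peak of any list within 10 kb. The nearest HIF-1α peak to ISM2 (chr14:77922883-77925382) was 25.11 kb from its closest start site, at the start of the neighbouring gene AHSA1. For CCDC8 the nearest peak was a HIF-1β peak of control cells 39.3 kb away, and for DNAH11 it was a HIF-1α peak 52.7 kb from its most downstream start site, at the start of CDCA7L, where all 3 pools also had a HIF-1β peak. L1CAM had a HIF-1β peak of HIF-1α cells at 69.3 kb and a HIF-1α peak at 84.3 kb. ADRBK2 and C14orf132 were the most remote, with their closest peak of any list 116.3 and 352.5 kb away. Thus 4 of the 8 genes, L1CAM, C14orf132, DNAH11 and ADRBK2, had no peak of any list within 50 kb. With a limit of 50 kb, 2 of the 8 (ISM2 and NIM1) had a HIF-1α peak, against 50.7% of all genes, and with 5 kb 1 of 8, against 31.6%.

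**Figure D4:**
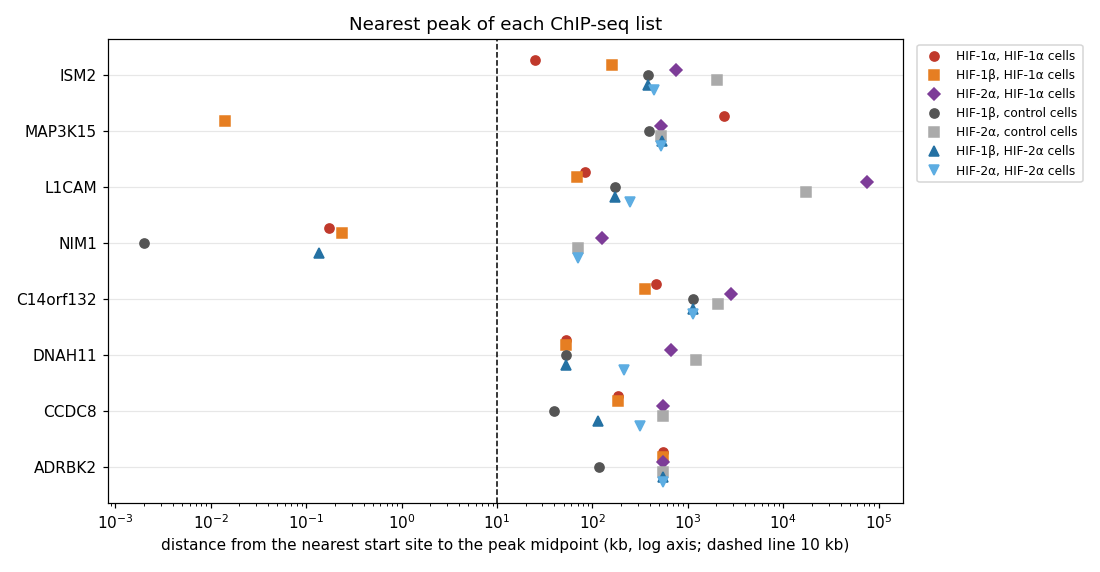
Distance in kb, on a log axis, from each gene's nearest annotated start site to the midpoint of the closest peak in each of the 7 ChIP-seq lists (colours and shapes), with a dashed line at 10 kb. Only NIM1 and MAP3K15 have symbols left of the line, and for C14orf132 the closest symbol is at 352.5 kb.

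The sequence under the peaks was examined for the HIF core within 150 bp of the midpoint. The window below is the centre of the HIF-1β peak of control cells at NIM1, from the plus strand of GRCh37 with cores in capitals. It lies inside all 4 of the peaks found at that start site, as do the centres of the other peaks there. Of these centres it is the one with the most cores.
NIM1, plus strand, chr5:43192803-43193102: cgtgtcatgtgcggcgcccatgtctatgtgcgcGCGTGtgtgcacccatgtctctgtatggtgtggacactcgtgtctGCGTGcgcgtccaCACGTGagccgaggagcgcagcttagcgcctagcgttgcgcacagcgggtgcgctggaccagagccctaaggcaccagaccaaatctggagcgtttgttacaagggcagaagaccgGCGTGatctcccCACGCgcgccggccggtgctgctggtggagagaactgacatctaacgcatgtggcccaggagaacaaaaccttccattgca
It holds 6 cores, 2 of which overlap as the palindrome CACGTG. At the same gene the centre of the HIF-1β peak of HIF-1α cells held 3 cores. The centres of the HIF-1α peak and of the HIF-1β peak of HIF-2α cells held 0. The whole 2500 bp of each of these peaks held 11, so the count depends on where the window is placed. The centre of the MAP3K15 peak held 0 cores and that of the distal peak near ISM2 2. For comparison, 65.4% of all HIF-1α peak centres and 68.2% of all HIF-1β peak centres of the HIF-1α cells held at least 1 core. For HIF-1β peak centres the share was 57.2% in control cells and 66% in HIF-2α cells.

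Promoters of CCDC8 and DNAH11 are given beside those of ISM2 and L1CAM above, with the same source and marking. The lists show no peak within 10 kb of any of these genes, ISM2 and L1CAM included.
CCDC8, minus strand, chr19:46413515-46413814: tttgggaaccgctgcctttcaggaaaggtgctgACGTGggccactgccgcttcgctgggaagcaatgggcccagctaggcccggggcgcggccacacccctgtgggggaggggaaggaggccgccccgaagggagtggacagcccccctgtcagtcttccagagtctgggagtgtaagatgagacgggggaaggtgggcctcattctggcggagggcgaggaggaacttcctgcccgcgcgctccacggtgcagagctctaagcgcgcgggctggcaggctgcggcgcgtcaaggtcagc
DNAH11, plus strand, chr7:21542789-21543088: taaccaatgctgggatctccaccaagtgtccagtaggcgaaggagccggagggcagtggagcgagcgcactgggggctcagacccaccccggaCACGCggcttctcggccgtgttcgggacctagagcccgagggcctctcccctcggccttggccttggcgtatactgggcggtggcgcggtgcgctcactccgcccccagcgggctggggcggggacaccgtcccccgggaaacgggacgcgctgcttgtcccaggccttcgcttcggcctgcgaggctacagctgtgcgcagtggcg
Each holds 1 core, starting at -217 in CCDC8 and at -157 in DNAH11. Of the 8 genes 5 had an entry in the RefSeq promoter table, and 4 of these 5 (ISM2, NIM1, CCDC8 and DNAH11) held a core in at least 1 entry. Among all RefSeq promoters 48.4% held a core, but that share counts single promoters, whereas NIM1 and L1CAM had more than 1 each. The counts are therefore not of the same unit, and 5 genes are too few to show a difference.

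Of the 16 nearest tested genes on either side of the 8, 0 were called in either direction by edgeR with the replicate block, against 5.41% of all genes called higher and 2.55% called lower, and 4 of them had an unadjusted p under 0.05 in that fit, against 33.2% of all genes. DESeq2 and edgeR without the block also called 0 of the 16, with 0 at such an unadjusted p in either, against 21.8% and 19.4% of all genes. With the block, their log2 fold changes between HIF-1α and control cells ran from -0.46 to 2.29 with a median of 0.08. The highest was BDKRB2, which encodes a bradykinin receptor and lies 111 kb from C14orf132, with an adjusted p of 0.0874 in edgeR. Its level was 0.417, 1.32 and 32.7 CPM in HIF-1α cells against 0.336, 0.37 and 2.97 CPM in control cells, so most of it lay in HIF-1α replicate 3. AHSA1, whose start holds the HIF-1α peak closest to ISM2, was at -0.36 ± 0.20, and ZNF131, which abuts NIM1, at 0.27 ± 0.22. MAP3K15 overlaps PDHA1 and DNAH11 overlaps CDCA7L, both on the opposite strand. Their log2 fold changes were -0.42 ± 0.19 for PDHA1 and 0.58 ± 0.16 for CDCA7L (adjusted p of 0.164 and 0.0537 in edgeR). L1CAM and ADRBK2 each overlap an antisense RNA, and L1CAM also overlaps a protein-coding gene, ENSG00000284987, whose strand was not checked. The libraries kept the strand, but the strand setting used in counting is not given in the sources used here, so a share of reads from overlapping genes was not tested.

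**Figure D5:**
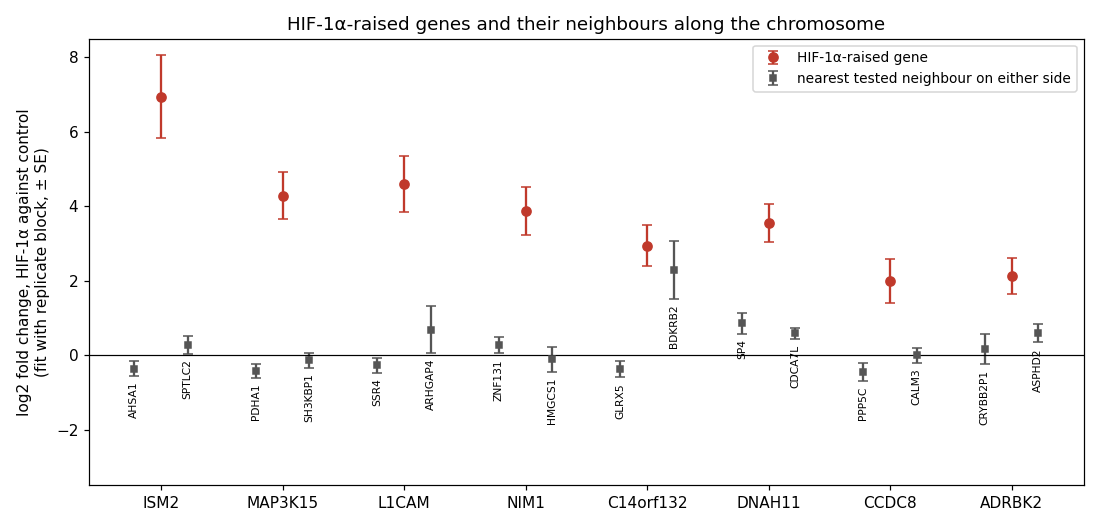
Log2 fold change between HIF-1α and control cells (edgeR with the replicate block, bars are SE) of each of the 8 genes (red circles) and of the nearest tested gene on either side (grey squares, named). The neighbours lie between -0.46 and 2.29 and the 8 genes between 1.98 and 6.95, so the ranges overlap. This contrast chose the 8 genes, so their higher range is a description and nothing is read from it.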

How the data were processed

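The deposited RNA-seq table holds raw read counts for each gene symbol and library, which the authors did not normalize. Per the methods, reads were trimmed with Trim Galore 0.3.3, aligned to GRCh37 with TopHat2 2.0.8b and Bowtie 1.0.0, and counted over UCSC genes with HTSeq 0.5.4p3. The strand setting is not given in the sources used here. For ChIP-seq the authors deposited peak positions without a score, from reads aligned with BWA 0.7.5a-r405 and called with T-PIC as well as MACS, 1 library per antiserum and pool, and the depth of those libraries is unknown.

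Counts of all 9 libraries entered 1 edgeR 4.0.16 fit (R 4.3.3) with the cell pool as its term, scaling by TMM, low counts removed by filterByExpr and the quasi-likelihood test. P-values were adjusted by Benjamini-Hochberg over the 14225 genes, with a threshold of 0.05. Each SE is the absolute log2 fold change divided by the square root of the F value of the quasi-likelihood test. It thus rests on a spread estimated from all 9 libraries. Alternatives were a model that added the replicate number as a block, DESeq2 1.42.0, other scaling factors, no filter, and each library left out. After removal of pool means, the 9 same-numbered pairs of libraries correlated at 0.348 to 0.652 across genes and the 18 pairs with different numbers at -0.478 to 0.0281, so the numbers, which come from the labels, pair the libraries. Totals of 27852754 to 54287621 counts leave the spread between replicates as the limit for all but the lowest genes. Every row of the table named a gene, and 0 columns were left unused.

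Positions came from GENCODE lifted to GRCh37, where 20654 of the 23441 symbols matched directly and 1378 through RefSeq synonyms. Promoters came from RefSeq (GRCh38.p14). Figures were drawn with matplotlib 3.10.9 in Python 3.11.15. The 8 genes and the lists of relatives, HIF targets, neuronal, 786-O and HEK293T genes were chosen with earlier results of these data known. The text names the 8, their relatives and nearest neighbours, those lists, the 5 genes most alike, and up to 5 others with a larger rise and at least 5 CPM. Of the alternatives, the blocked fits with 1 library left out and the count of HIF-1β peaks absent from control cells were chosen after the data were seen. The scripts were tested on simulated data. The choice held 1 further gene, which is not reported here.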

Additional observations from a re-analysis of the deposited data

How the results depend on the processing

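The number of genes past an adjusted p of 0.05 depended on the model, and the cause was not tested. Between HIF-1α and control cells it was 0 without a block, 1132 with the replicate block and 766 with DESeq2; between HIF-2α and control cells 0, 38 and 60, and 1 with no filter on low counts; and between HIF-1α and HIF-2α cells 7, 843 and 603, and 82 with no filter. With 1 library left out, the counts ranged from 0 to 0, from 0 to 2 and from 0 to 29 without the block, and from 0 to 2408, from 2 to 94 and from 167 to 890 with it. For HIF-1α against control cells the blocked count was 0 without HIF-1α replicate 2, HIF-2α replicate 1, control replicate 2 or control replicate 3, and 2408 without control replicate 1. DESeq2 also called NRCAM, MAP2, IGF2BP1, BNIP3L, P4HA1 and MXI1, whereas KRT18, CA9 and KDM3A were called by the blocked fit alone. Among the lists of relatives, HIF targets and 786-O genes, MAP3K5, BNIP3, HK2 and KRT8 were called by DESeq2 alone.

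The 8 genes were higher in HIF-1α than in control and HIF-2α cells under every alternative run. Between HIF-2α and control cells none of the 7 genes given a fold was called under any alternative, and the sign changed with 1 library left out for NIM1 (log2 fold changes of -1.12 to 0.19 without the block and -1.11 to 0.50 with it) and ADRBK2 (-0.84 to 0.57 and -0.83 to 0.54). The number of the 8 genes with a HIF-1α peak was 1 at 5 kb or with the gene's 5′ end as the sole start site, and 2 at 50 kb.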
